A study of Mus musculus with 6 samples.

Results

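The S100 proteins are a family of small calcium-binding proteins, and 10 of their genes were followed here in keratinocytes of mouse skin. The array's annotation gave 16 probe sets with a single gene symbol among these 10, of 12422 probe sets other than controls. They covered 9 genes: S100a1, S100a3, S100a4, S100a6, S100a8, S100a9, S100a10, S100a13 and S100b. The remaining gene, S100a11, appeared on 1 probe set, 98600_at, which also lists Gm12854 and S100a11-ps, so that its signal belongs to no single named gene. The genes were selected by family symbol while the differences between the sorted populations were already known, with S100a4 among those known to differ. Their differences between EGFP-high and EGFP-negative cells are therefore given as a description. Their calls are counted beside the share over all probe sets, no p is given for any of the 10, and nothing is read from the counts.

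RNA of 3 EGFP-high and of 3 EGFP-negative keratinocyte samples was hybridised, with 1 array for each. Both populations were sorted from skin of K15-EGFP transgenic mice, and both were positive for alpha-6 integrin, by which basal keratinocytes hold the basement membrane. All 6 samples thus carry the transgene, in which the keratin 15 promoter drives enhanced green fluorescent protein (EGFP) in hair follicle bulge cells. The sources used here give no age, strain or number of animals, and the spread between samples may be partly technical.

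S100 proteins carry a pair of EF-hand calcium-binding loops and usually act as dimers. Calcium opens a surface on the dimer that docks onto targets such as annexins, non-muscle myosin and p53, and some members are secreted and signal through the receptors RAGE and TLR4. Most of the genes lie side by side in the epidermal differentiation complex, a chromosomal block that also holds loricrin, filaggrin and the small proline-rich proteins. S100a4 is known from fibroblasts and migrating cells, S100a8 and S100a9 as the calprotectin subunits of neutrophils and stressed keratinocytes, and S100b from Schwann cells and melanocytes.

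In the RefSeq annotation of GRCm38.p6, S100a1 and S100a13 overlap at their starts on opposite strands of chromosome 3, and their promoter windows share 204 bases. S100a3, S100a4, S100a5 and S100a6 follow each other further along, then S100a8 and S100a9, and beyond other genes of the block S100a11 and S100a10, while S100b lies on chromosome 10. These positions did not enter the choice of genes. RefSeq promoter windows, which run from 250 bases before the annotated start to 50 after it, are shown for S100a4 and S100a6, the neighbours with the brightest signals in EGFP-high cells, and for the stretch that S100a1 and S100a13 share. Capitals mark matches to 4 motifs. The AP-1 motif TGANTCA, the GC box GGGCGG and the TCF core CTTTGA were searched on both strands, and the TATA box TATAAA on the sense strand.
S100a4, chr3:90603520-90603819, plus strand: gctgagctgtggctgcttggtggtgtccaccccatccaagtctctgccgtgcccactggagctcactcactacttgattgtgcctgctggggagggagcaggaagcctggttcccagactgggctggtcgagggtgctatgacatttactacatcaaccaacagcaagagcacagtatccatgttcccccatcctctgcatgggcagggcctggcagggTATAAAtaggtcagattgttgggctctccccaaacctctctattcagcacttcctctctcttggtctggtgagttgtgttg
S100a6, chr3:90612644-90612943, plus strand: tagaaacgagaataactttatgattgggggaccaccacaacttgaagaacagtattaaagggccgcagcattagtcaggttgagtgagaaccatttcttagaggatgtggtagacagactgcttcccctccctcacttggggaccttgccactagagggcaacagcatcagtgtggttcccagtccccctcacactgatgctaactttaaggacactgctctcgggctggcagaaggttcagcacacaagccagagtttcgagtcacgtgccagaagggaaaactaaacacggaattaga
S100a1 and S100a13 shared stretch, chr3:90514281-90514484, plus strand: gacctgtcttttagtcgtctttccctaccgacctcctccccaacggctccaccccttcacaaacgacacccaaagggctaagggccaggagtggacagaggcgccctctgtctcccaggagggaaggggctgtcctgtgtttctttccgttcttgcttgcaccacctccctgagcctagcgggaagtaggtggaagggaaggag
The S100a4 window held a TATAAA starting 31 bases before the annotated start. No other searched motif was found in these 3 sequences, and no matches overlapped in them. Among 12 windows of the S100 genes, 4 held TATAAA (S100a3, S100a4, S100a8 and S100a9), against 8.319% of all 32851 windows. Several of the 12 windows belong to S100a3 and none to S100a10, so they do not stand for 12 genes. The match began 52 bases before the annotated start in 1 S100a3 window, 30 before it for S100a8, and at the start itself for S100a9. TGANTCA was found in 1 of the 12 (S100a11) against 7.808%, GGGCGG in 3 against 35.66%, and CTTTGA in 2 against 16% of all windows. The motifs were chosen after the values were seen, and a match is a string of letters, not a measured binding site.

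S100 levels are deposited intensities on a linear scale. A log2 difference is EGFP-high minus EGFP-negative on the log2(intensity + 19.3) scale, with its standard error from limma, and it understates changes of dim probe sets. Array medians were 69.55 to 76.05, and profiles correlated at 0.92 to 0.95 within a population and 0.84 to 0.91 between them. Background was read from 19 control probe sets for bacterial and yeast genes, whose 95th percentile was 25.58 to 42.25 on EGFP-high and 25.5 to 37.17 on EGFP-negative arrays. Of 15 keratinocyte markers 14 were on the array and 11 were above this level on all 6 arrays, but Krt14 and Krt15 were above it on none and Krt5 on 1 EGFP-high array. Keratin 15 transcript, the endogenous counterpart of the transgene, therefore gives no check of the sort. The keratinocyte markers summed to 24094.4 to 32890.1 in EGFP-high cells, against 34999.4 to 38563.3 in EGFP-negative cells, without overlap. Of 11 tested, 2 were called lower, Itga6 and Sfn (limma, log2 -1.26 and -1.31, adjusted p = 0.00449 and 0.0106). Of all tested probe sets 2.17% were called lower. Krt1 was lower with the replicate number as a block (log2 -1.43, limma adjusted p = 0.292, and 0.00708 with the block), and Krt10 averaged 5207.5 in EGFP-high cells, against 8909.7 in EGFP-negative cells. The list was mixed: Dsp, Itgb4, Lama3, Cdh3 and Cdh1 had ratios of means of 1.05 to 1.16, and the median log2 difference of the 11 was -0.13. Itga6 encodes the integrin used for the gate, Sfn the keratinocyte protein stratifin, and their part in the S100 readings was not tested.

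In EGFP-high cells S100a4, S100a6, S100a3 and S100a1 read higher. S100a4, a partner of non-muscle myosin, stood furthest apart, 34.9-fold by the ratio of mean intensities, and S100a6 (calcyclin) was the brightest S100 probe set in EGFP-high cells at 2.76 times its EGFP-negative level. S100a13 and the S100a11 probe set read lower, S100a10 and S100a8 differed little, and S100a9 and S100b did not rise above the controls on any array. Of the 16 probe sets 10 passed the filter on low values, and 4 of them were called higher at an adjusted p under 0.05 by limma, where 3.02% of all 7453 tested probe sets were. Among them, S100a1 95453_f_at passed the filter through EGFP-high cells alone, with a mean log2 value of 7.94 in EGFP-high cells, against 5.82 in EGFP-negative cells, the EGFP-negative value lying below the filter. Of the 10, 1 was called lower, where 2.17% of all were. All 3 EGFP-high arrays lay above all EGFP-negative arrays for 4 of the 10 and below them for 3, where 11.6% and 11.1% of all tested probe sets did so. The median log2 difference of all 16 probe sets, dim ones included, was -0.06, against 0.012 over all 12422 probe sets without the filter. These counts describe genes chosen with this contrast known.

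**Figure D1:**
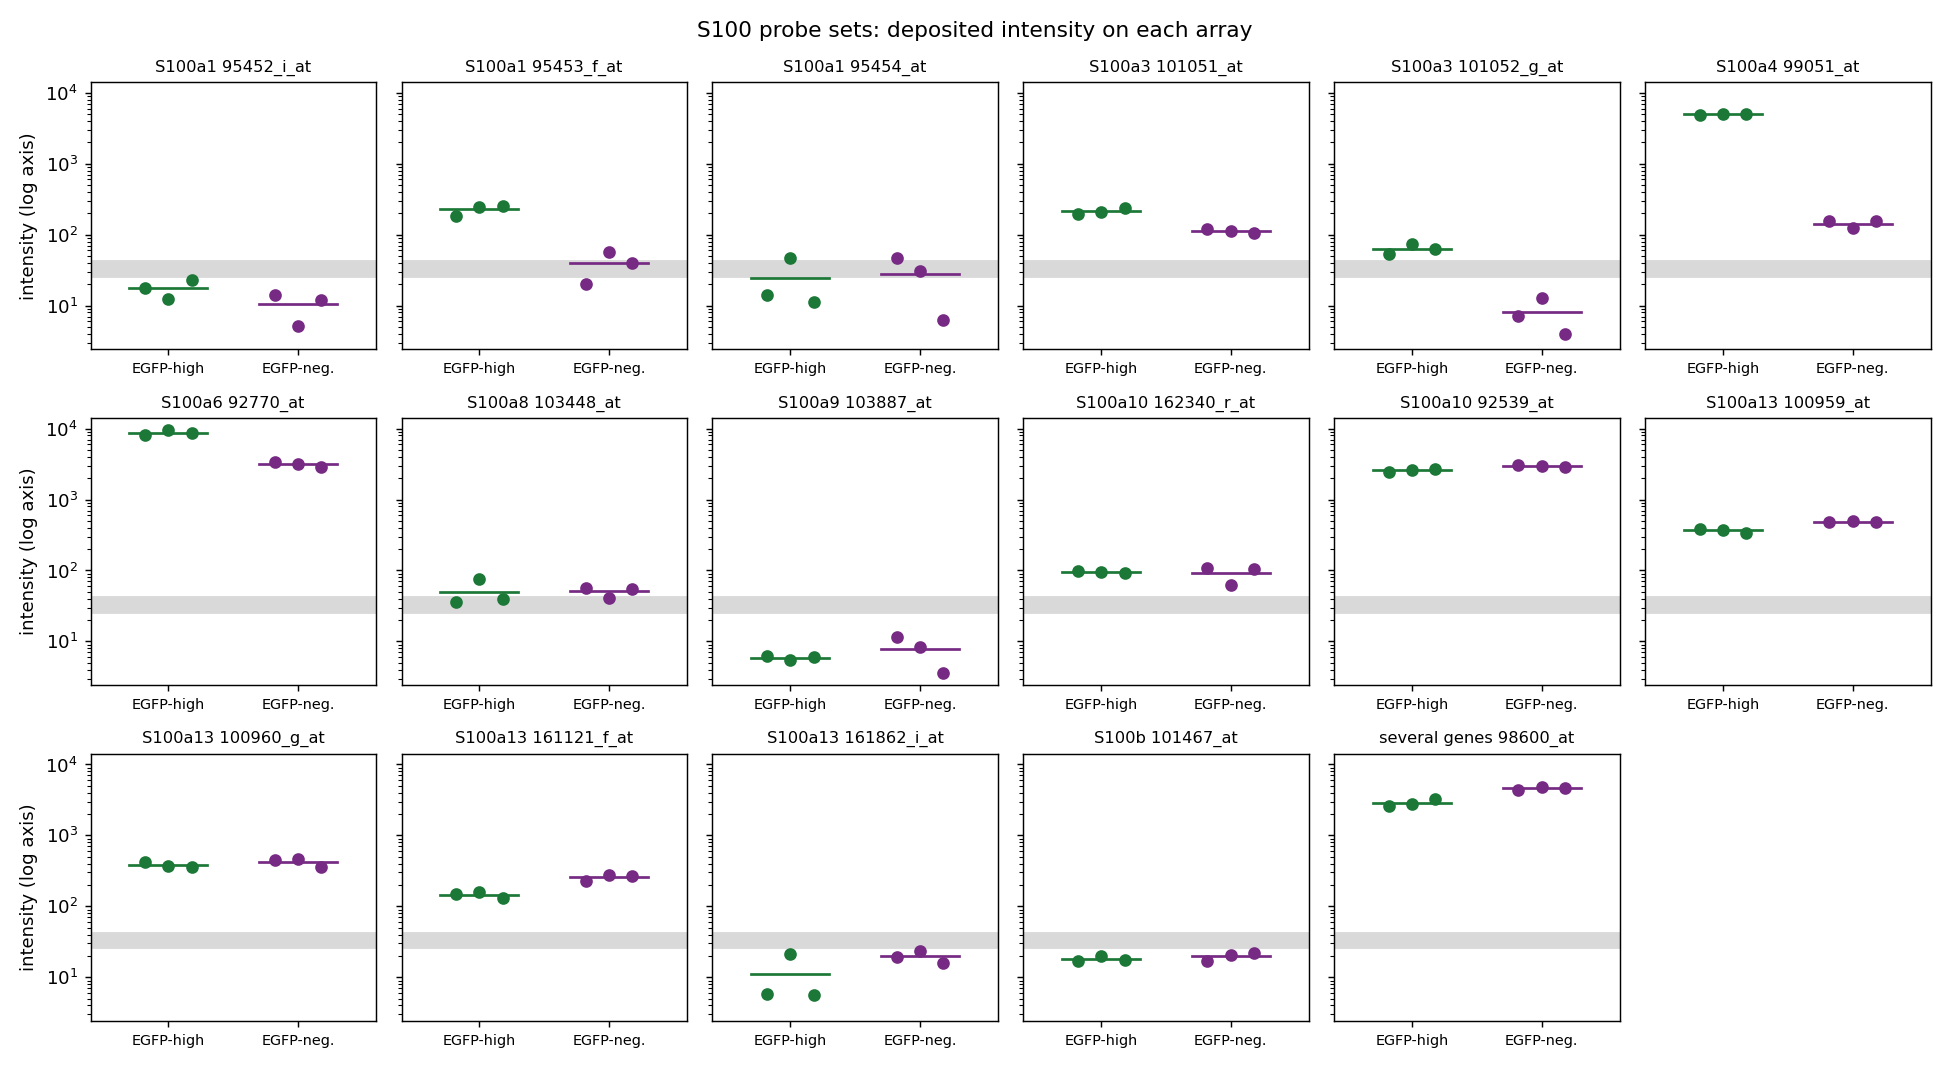
Deposited intensity (log axis) of the 16 S100 probe sets and of 98600_at, with EGFP-high arrays left of EGFP-negative arrays, points for replicates 1 to 3 from left to right, and a line at each mean. The grey band is the range over the 6 arrays of the 95th percentile of control probe sets; S100a4 and S100a6 lie far above it in both populations, while S100a9 and S100b lie below it.

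S100a4 read 4858.6, 5081 and 5089.7 on EGFP-high replicates 1, 2 and 3, against 153.5, 122.5 and 154.6 on EGFP-negative replicates 1, 2 and 3. The populations were far apart, and the 3 values within each lay close together. The mean was 5009.8 ± 131 in EGFP-high cells, against 144 ± 18.2 in EGFP-negative cells (SD, n = 3 each), a log2 difference of 4.95 (SE 0.15). Both means were above the controls, so S100a4 signal was measurable in the EGFP-negative samples as well. Which cells of those samples gave it was not tested. Replicates of the same number differed by 4.82, 5.17 and 4.88 on the log2 scale.

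S100a6, whose product binds calcyclin-binding protein and annexin 11, read 8070.1, 9470.6 and 8571.1 in EGFP-high cells, against 3366.3, 3208.5 and 2870 in EGFP-negative cells. The populations did not overlap, and the gene was bright in both. Its means were 8703.9 ± 710 and 3148 ± 254 (SD, n = 3 each), with a log2 difference of 1.46 (SE 0.15). The difference was 1.70 with quantile normalization.

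S100a3, a family member known from the hair cuticle, had a pair of probe sets that agreed in direction and not in size. The first, 101051_at, read 196.7, 206.7 and 235.5 in EGFP-high cells, against 119.3, 114 and 106.3 in EGFP-negative cells. All EGFP-high arrays were above all EGFP-negative arrays, with a log2 difference of 0.81 (SE 0.16). The second, 101052_g_at, read 53, 74.9 and 63.5 in EGFP-high cells, against 7.2, 13 and 4 in EGFP-negative cells. It was above the controls on every EGFP-high and on no EGFP-negative array, so only a bound is available, at least 1.93-fold higher in EGFP-high cells against the control level. It was too dim to pass the filter, and the suffix g marks probe sets that share probes with another set.

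S100a1, best known from heart and skeletal muscle as a regulator of calcium handling, had 3 probe sets that disagreed. The probe set 95453_f_at read 185.9, 242.8 and 255.3 in EGFP-high cells, against 20.2, 57.1 and 40.4 in EGFP-negative cells, where 2 of 3 arrays were above the controls. The populations did not overlap, and the log2 difference was 2.12 (SE 0.26), from 1.40 to 2.48 over the alternatives because its size depends on the pseudocount. The probe set 95452_i_at read 12.5 to 22.6 in EGFP-high cells, against 5.2 to 14 in EGFP-negative cells, above the controls on no array. The third, 95454_at, read 11.3 to 47.6 in EGFP-high cells, against 6.2 to 47.1 in EGFP-negative cells, above the controls on 1 array of each population. The suffix f marks a probe set whose probes can detect related sequences, the suffix i one with fewer unique probes. Whether related transcripts add to 95453_f_at was not tested, and the reading for S100a1 rests on this 1 of its 3 probe sets.

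S100a13, which takes part in the release of fibroblast growth factor 1 and interleukin 1 alpha, read slightly lower in EGFP-high cells on each of its 3 tested probe sets. The probe set 100959_at read 386.2, 374 and 338.9 in EGFP-high cells, against 488.7, 492.5 and 487.6 in EGFP-negative cells. The EGFP-high arrays were all below the EGFP-negative arrays, with a log2 difference of -0.40 (SE 0.14), which was not among the calls. The probe set 161121_f_at read 147.2, 159 and 132.1 in EGFP-high cells, against 224.1, 277.7 and 271.6 in EGFP-negative cells. It differed more, at a log2 value of -0.74 (SE 0.16), and was the 1 probe set called lower, though the f suffix applies to it too. The populations overlapped on 100960_g_at, with means of 385 ± 34.3 in EGFP-high cells, against 421 ± 56.2 in EGFP-negative cells (SD, n = 3 each) and a log2 difference of -0.12 (SE 0.16). The last probe set, 161862_i_at, read 5.6 to 21.6 in EGFP-high cells, against 15.9 to 23.8 in EGFP-negative cells, above the controls on no array. S100a13 and S100a1 share the promoter stretch printed above. The S100a13 log2 differences lay below 0, and those of S100a1 lay on both sides of it. On the S100a1 probe set 95453_f_at, which has the f suffix, the value was 2.12. The untested S100a1 probe sets 95452_i_at and 95454_at, mostly at the control level, had 0.32 and -0.11. Whether the shared stretch bears on these readings was not tested.

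The probe set 98600_at, which lists S100a11 beside Gm12854 and S100a11-ps, read 2581.6, 2803.5 and 3242.8 in EGFP-high cells, against 4410, 4799.9 and 4724.7 in EGFP-negative cells. The populations did not overlap, and the log2 difference was -0.69 (SE 0.15). Quantile normalization moved it to -0.34. It passed the threshold as reported, but not with quantile normalization, without the filter, without a trend, without both arrays of number 1 or without any 1 array. S100a11 protein pairs with annexin 1 and is a component of the cornified envelope, but the share of this signal that is S100a11 was not tested.

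S100a10, the partner of annexin 2, read 2483, 2641.9 and 2672.6 in EGFP-high cells on 92539_at, against 3056.4, 2978.8 and 2909.8 in EGFP-negative cells. The arrays did not overlap, but the log2 difference was only -0.20 (SE 0.14) and turned to 0.094 with quantile normalization. Its other probe set, 162340_r_at, read 93.6 to 99.8 in EGFP-high cells, against 62.2 to 108.2 in EGFP-negative cells. The populations overlapped there, with a log2 difference of 0.086 (SE 0.21). The suffix r marks a probe set for which some of the usual rules of probe selection were dropped.

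The calprotectin genes were dim. S100a8 read 36, 75.1 and 39.3 in EGFP-high cells, against 57.2, 40.8 and 55.7 in EGFP-negative cells. The populations overlapped, close to the control level, with a log2 difference of -0.058 (SE 0.27). S100a9 read 5.5 to 6.3 in EGFP-high cells, against 3.6 to 11.5 in EGFP-negative cells, above the controls on no array. S100b read 17.1 to 19.9 in EGFP-high cells, against 16.7 to 21.8 in EGFP-negative cells, likewise not above the controls. Both populations had only a bound for S100a9 and S100b, so their log2 differences in the plot of all S100 probe sets are not read as folds.

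**Figure D2:**
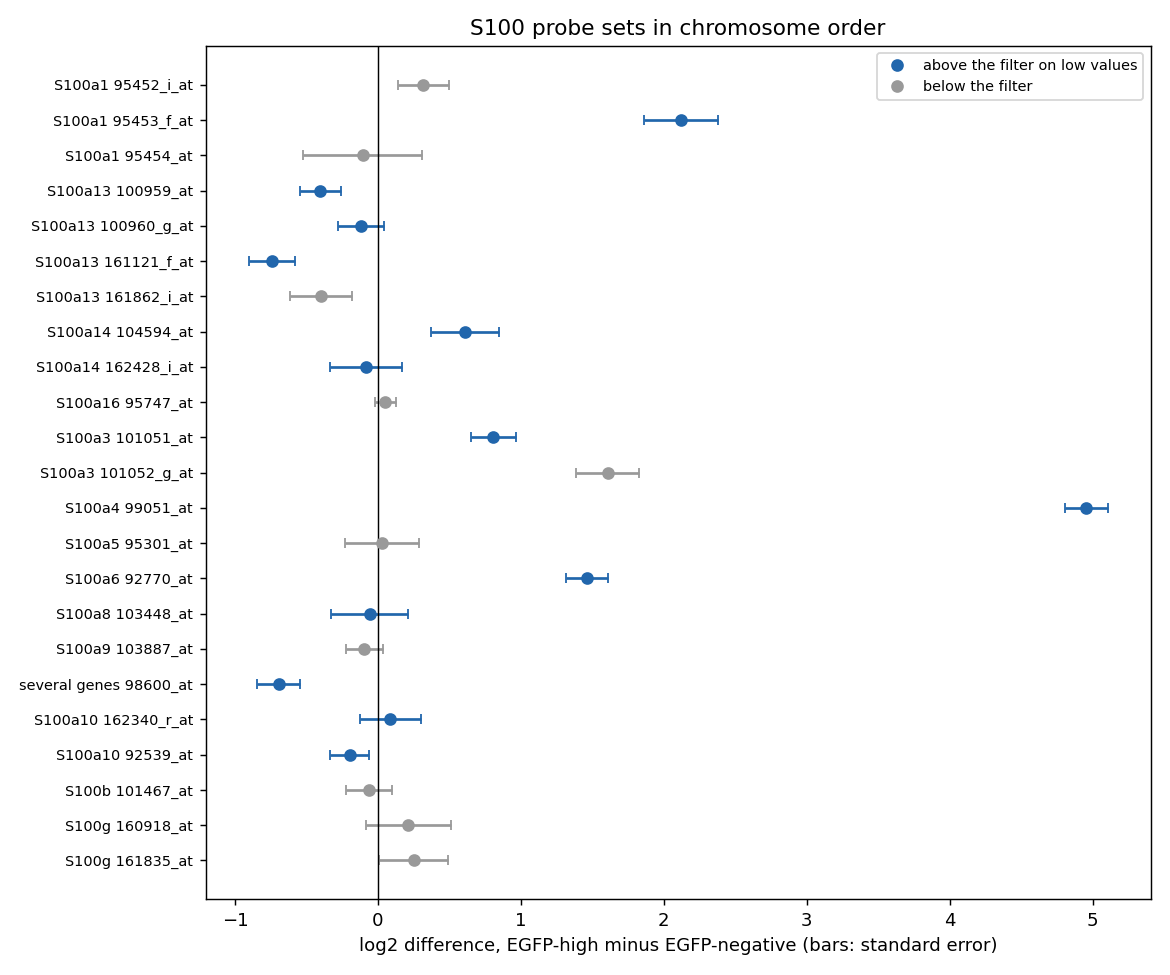
Log2 difference, EGFP-high minus EGFP-negative, with its standard error, for every S100 probe set in chromosome order from top to bottom (98600_at at the place of S100a11, and the last rows on other chromosomes). Grey points are below the filter on low values. S100a3, S100a4 and S100a6 lie to the right of 0, with S100a4 at 4.95, and S100a5 between S100a4 and S100a6 lies at 0.03.

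Of the S100 genes outside the 10, 6 probe sets of S100a5, S100a14, S100a16 and S100g were on the array. S100a5, which lies between S100a4 and S100a6, read 32 to 54.2 in EGFP-high cells, against 28.9 to 54.6 in EGFP-negative cells, near the control level in both. S100a14 read 58.4 to 82.7 in EGFP-high cells, against 26.2 to 45.5 in EGFP-negative cells on 104594_at, with no overlap, and its other probe set, 162428_i_at, overlapped at 773.4 to 893.6 against 566 to 1123.6. Neither passed the threshold (limma, adjusted p = 0.23 and 0.911). S100a16 and both S100g probe sets were above the controls on no array.

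Cells in which these genes are also known were read through marker lists. Fibroblast markers summed to 1309 to 1449.8 in EGFP-high cells, against 1295.9 to 1411.1 in EGFP-negative cells over 7 genes of 8, overlapping ranges, and Col3a1 was at the control level on all 6 arrays. Col1a2 alone, on a probe set with the r suffix, averaged 708 in EGFP-high cells, against 712.5 in EGFP-negative cells. Col1a1 averaged 238.1 in EGFP-high cells, against 170.9 in EGFP-negative cells (log2 0.49, limma adjusted p = 0.397). It was the 1 tested fibroblast gene with all EGFP-high arrays above all EGFP-negative arrays, and 0 had them all below. Of 5 tested fibroblast genes 0 passed the threshold (limma), and 0 had an unadjusted p under 0.05. Of all tested probe sets 8.47% had such a p in the higher and 8.68% in the lower direction, so nothing is read from these counts. Neutrophil markers summed to 748.3 to 1022.8 in EGFP-high cells, against 749.2 to 842.4 in EGFP-negative cells over 11 genes of 11, and Ly6g, Ngp, Ltf and Mmp8 were at the control level throughout. Macrophage and Langerhans cell markers summed to 782.3 to 1042.7 in EGFP-high cells, against 618.5 to 968.3 in EGFP-negative cells, over 12 of 13 genes. Adgre1, Fcer1g, Itgam, Lyz2 and Tyrobp were at the control level. Csf1r, on a probe set with the r suffix, was higher on every EGFP-high array (log2 0.47, limma adjusted p = 0.407). The other tested genes of this list overlapped. T cell and pan-leukocyte markers summed to 389.2 to 670.1 on EGFP-high arrays, against 424.8 to 498.4 on EGFP-negative arrays, over 9 of 10, and Thy1 was called lower (limma, log2 -1.51, adjusted p = 0.0382). Laptm5 had a log2 difference of 0.51 (limma adjusted p = 0.283). Among genes too dim to be tested, Cd3d and Cd3e were higher on every EGFP-high array than on any EGFP-negative array. Coro1a was lower on every EGFP-high array than on any EGFP-negative array. Cd3d and Cd3e were above the controls on 1 EGFP-high array each, and Coro1a on 1 EGFP-negative array. Melanocyte markers summed to 337.6 to 515.4 in EGFP-high cells, against 282.7 to 313.7 in EGFP-negative cells over 6 of 8 genes, without overlap. Mitf was called higher (limma, log2 1.13, adjusted p = 0.0147). Kit, too dim to be tested, was higher on every EGFP-high array and above the controls on 2 of them. Dct and Tyrp1 averaged lower in EGFP-high cells. Schwann cell markers summed to 567.9 to 646.5 in EGFP-high cells, against 565.6 to 711.7 in EGFP-negative cells, over 4 of 9. Mbp was lower on every EGFP-high array (log2 -0.65, limma adjusted p = 0.132). Pmp22 went the other way with overlap (log2 0.67, limma adjusted p = 0.349). Endothelial markers summed to 127.4 to 204.1 in EGFP-high cells, against 79 to 179.7 in EGFP-negative cells, over 5 of 6. The part of any of these cell types in the S100 readings was not tested. In sorted samples of this kind, more cells expressing a gene and more transcript in each cell cannot be told apart.

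The genes whose products work with S100 proteins were then tested, as lists that the S100 choice did not use. Most did not pass the threshold. Of 49 tested annexins, partners, receptors and other calcium-binding proteins, 5 were called higher and 0 lower by limma, against 3.02% and 2.17% of all tested probe sets. Among the 5, Fgf1 and Capn2 passed the filter on low values through EGFP-high cells alone. Their mean log2 values were 7.65 and 7.57 in EGFP-high cells, against 5.43 and 5.74 in EGFP-negative cells, below the filter. At an unadjusted p under 0.05, 9 were higher and 6 lower, where 8.47% and 8.68% of all tested probe sets were. With the replicate number as a block 7 were called higher and 4 lower, where 5.13% and 5.31% of all were. The lists were drawn from general knowledge with earlier results of these data known.

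Among 7 tested annexins, membrane-binding proteins that S100 dimers bridge, 1 was called higher and 0 lower. Of all tested probe sets 3.02% and 2.17% were. At an unadjusted p under 0.05 (limma), 1 annexin was higher and 5 were lower, beside 8.47% and 8.68% of all. All EGFP-high arrays lay above all EGFP-negative arrays for 1 annexin and below them for 5, beside 11.6% and 11.1% of all. The median over the list was -0.45 on the log2 scale. Anxa6, a target of S100A1 and S100B in binding studies, read 380.5, 511.2 and 481.5 in EGFP-high cells, against 111.8, 188.9 and 132 in EGFP-negative cells. It was higher by a log2 value of 1.56 (SE 0.21, limma adjusted p = 0.00313), and passed under all 13 alternatives, with an adjusted p of 0.000541 to 0.0241. Anxa2, the partner of S100a10, read 6694.5, 5480.8 and 4740.8 in EGFP-high cells, against 11200.1, 7950.2 and 7440.9 in EGFP-negative cells. Its log2 difference of -0.64 (SE 0.20) did not pass (limma adjusted p = 0.131), but did with the replicate number as a block (adjusted p = 0.00395). Anxa1, the partner of S100a11, had a log2 difference of -0.81 (SE 0.22, limma adjusted p = 0.0759, and 0.0197 with the block), on a probe set with the f suffix. Anxa4 passed with the block alone among the 13 alternatives (log2 -0.56, limma adjusted p = 0.0785 without it and 0.0331 with it). Over 13 alternatives the adjusted p ran from 0.00395 to 0.363 for Anxa2, from 0.00907 to 0.272 for Anxa1 and from 0.0331 to 0.274 for Anxa4. With the block 1 of the 7 annexins was called higher and 3 lower, beside the 5.13% and 5.31% of all probe sets.

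Of 21 tested intracellular partners other than annexins, 2 were called higher and 0 lower, beside 3.02% and 2.17% of all tested probe sets. Their median log2 value was -0.065. Fgf1, a growth factor released together with S100A13, read 145.4, 196.8 and 206.1 in EGFP-high cells, against 23.4, 45.1 and 9.9 in EGFP-negative cells. Only 1 of the 3 EGFP-negative arrays was above the controls, so the size of its log2 difference of 2.21 (SE 0.30, limma adjusted p = 0.00307) depends on the pseudocount, from 1.34 to 2.76. Tpm1, a tropomyosin of actin filaments, rose by a log2 value of 0.85 (SE 0.20, limma adjusted p = 0.0423), and kept its call under 6 of 13 alternatives, with the highest adjusted p, 0.169, without EGFP-high replicate 3. The other tested partners did not pass, direct targets of the S100 proteins among them. Myh9, the myosin that S100a4 binds, had a log2 difference of -0.14 (limma adjusted p = 0.836), Ahnak, which binds S100a10 with annexin 2, -0.35 (0.319), and Cacybp, which binds S100a6, -0.32 (0.474). Ndrg1, a gene of differentiation and stress, passed under 5 of 13 alternatives, the block among them (log2 0.94, limma adjusted p = 0.0528, and 0.00425 to 0.185 over the alternatives). Iqgap1, a scaffold of actin and calmodulin signalling, passed in the lower direction with the block alone among the 13 alternatives (log2 -0.51, limma adjusted p = 0.299, and 0.0323 to 0.657 over them).

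Of 5 tested receptors and signalling partners 0 passed by limma, and 0 had an unadjusted p under 0.05. Such a p was found for 8.47% of all tested probe sets in the higher and 8.68% in the lower direction. With 5 genes nothing is read from these counts. Ager, which encodes RAGE, read 44.5, 116.5 and 67.7 in EGFP-high cells, against 61.2, 41.7 and 34.8 in EGFP-negative cells, overlapping (log2 0.50, SE 0.31, limma adjusted p = 0.473). Among 16 tested EF-hand and calcium-store proteins outside the S100 family, 2 were called higher and 0 lower. Of all tested probe sets 3.02% and 2.17% were. Their median log2 value was 0.13. Capn2, a catalytic subunit of the calcium-activated protease calpain, read 109.5, 183.8 and 241.6 in EGFP-high cells, against 9, 63 and 45.8 in EGFP-negative cells, a log2 difference of 1.83 (SE 0.41, limma adjusted p = 0.0356). Only 2 EGFP-negative arrays were above the controls for Capn2, so the size of its difference depends on the pseudocount, from 1.13 to 2.27. With the pseudocount 25% as large it was not called (limma adjusted p = 0.0564). Capns1, the small regulatory subunit of calpain, read 519.7, 511.4 and 589.5 in EGFP-high cells, against 343.3, 367.8 and 309.8 in EGFP-negative cells, a log2 difference of 0.64 (SE 0.15, limma adjusted p = 0.0456). Capn1, another catalytic subunit, had a log2 difference of -0.35 (limma adjusted p = 0.417), named after its values were seen. Capn2 kept its call under 8 of 13 alternatives and Capns1 under 5, with Capns1 losing it without any 1 array. The highest adjusted p, without EGFP-high replicate 3, was 0.154 for Capn2 and 0.181 for Capns1. Rcn2, a calcium-binding protein of the endoplasmic reticulum, passed with the block alone among the 13 alternatives (log2 0.67, limma adjusted p = 0.219, and 0.0363 with the block).

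**Figure D3:**
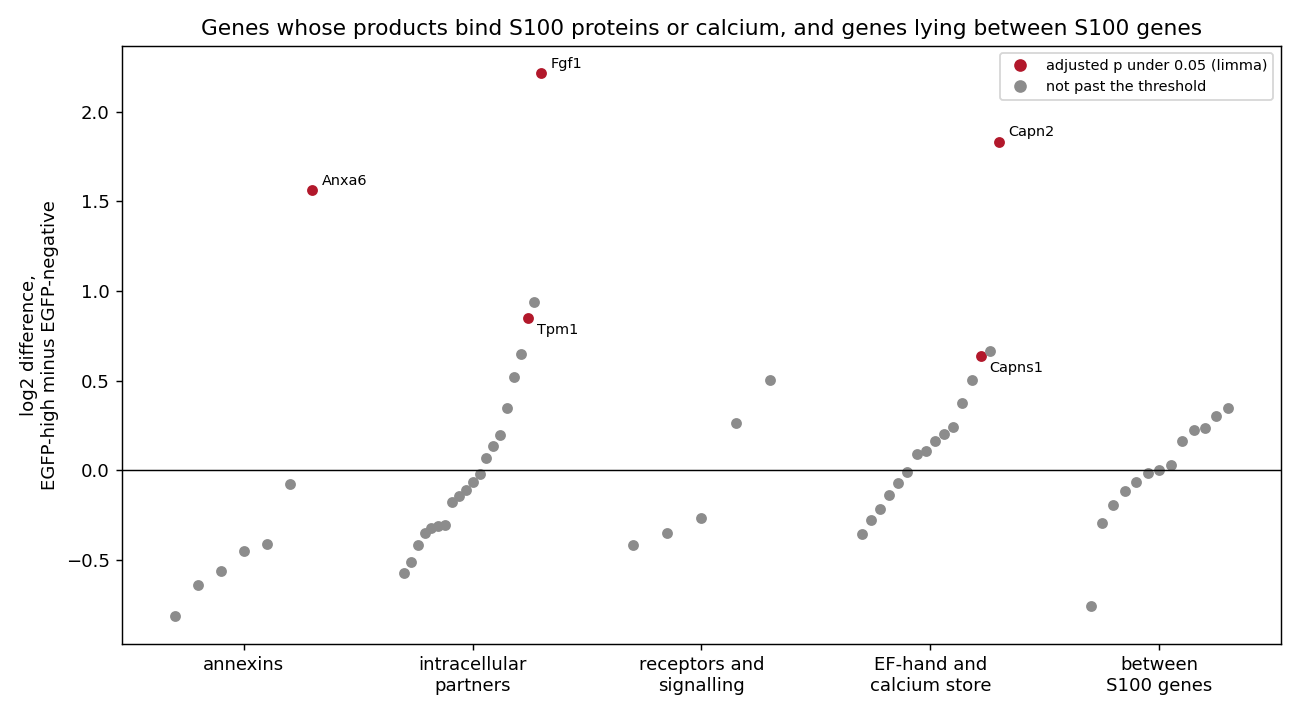
Log2 difference, EGFP-high minus EGFP-negative, of each tested gene in 4 lists of S100-related or calcium-binding genes and of the genes lying between S100 genes, 1 point for each gene in rising order within a list. Red points passed an adjusted p of 0.05 (limma): Anxa6, Fgf1, Tpm1, Capn2 and Capns1, and none among the genes between.

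The chromosomal block was read through the other genes in it. RefSeq places 86 genes without an S100 symbol between S100a1 and S100a10, 20 were on the array by a single symbol and 13 were tested. All 13 lie in the stretch between S100a9 and S100a11. None lies among S100a1 to S100a9, where the S100 genes called higher are, so the surroundings of those genes were not read. Several Sprr genes among the 13 were on probe sets with the f suffix and can share signal. By limma 0 were called higher and 0 lower, where 3.02% and 2.17% of all tested probe sets were. The median log2 value was -2.8e-05, and 1 had an unadjusted p under 0.05, in the lower direction, where 8.68% of all tested probe sets did. With 13 genes these counts are near the shares over all probe sets, and nothing is read from them. The gene with the unadjusted p under 0.05 was Sprr2b, a small proline-rich protein of the cornified envelope (log2 -0.76, SE 0.29, limma adjusted p = 0.212, and 0.0494 with the replicate block, the lowest of its alternatives), on a probe set with the f suffix. Lor and Flg, the genes of loricrin and filaggrin, had log2 differences of -2.8e-05 (SE 0.31) and -0.12 (SE 0.24), Lor on a probe set with the r suffix. The 13 log2 differences ran from -0.76 to 0.34.

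The genes with the most similar profile over the 6 arrays were taken by the root mean square difference between log2 profiles centred on their own mean, a measure dominated by the contrast between the populations. Nearest to S100a4 was Cd34, a surface antigen of bulge cells, at 0.12 log2 units, then Cck, a peptide hormone, at 0.46, Lgr5, a receptor of follicle stem cells, at 0.62, Col6a1, a collagen, at 0.68 and Kcnk2, a potassium channel, at 0.82. In EGFP-negative cells Cck, Lgr5 and Col6a1 were above the controls on no array and Cd34 on 1 of 3, so their distances and ranks depend on the pseudocount. Cd34 averaged 1456 in EGFP-high cells, against 34.9 in EGFP-negative cells. Nearest to the lowest S100a13 probe set, 161121_f_at, were Higd1a at 0.068, Acot9 at 0.081, Tnfrsf21 and Dll1 at 0.083 and Slc66a2 at 0.088. Dll1, a Notch ligand, averaged 151 in EGFP-high cells, against 283 in EGFP-negative cells.

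The differences of the S100 probe sets called higher could not change sign when single arrays were left out, because the populations did not overlap. Without any 1 array that of S100a4 was 4.86 to 5.01, that of S100a6 1.40 to 1.51, that of S100a3 on 101051_at 0.74 to 0.86, and that of S100a1 on 95453_f_at 1.86 to 2.34. EGFP-high replicate 1 was the lowest EGFP-high array for each of these 4 probe sets. The S100a3 probe set was not called without EGFP-high replicate 2, EGFP-high replicate 3, EGFP-negative replicate 2 or EGFP-negative replicate 3. The S100a13 call on 161121_f_at was lost without 5 of the 6 arrays, all but EGFP-negative replicate 1.

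**Figure D4:**
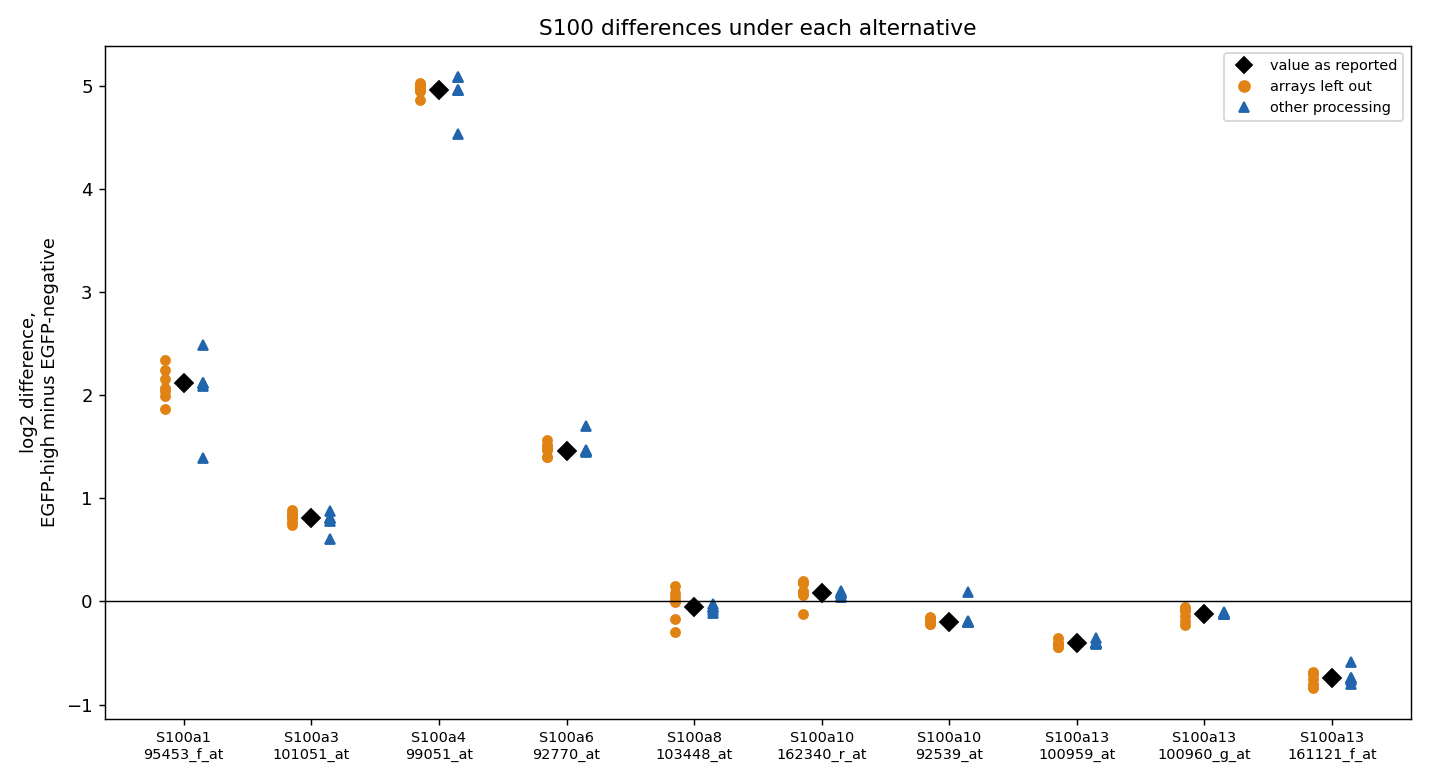
Log2 difference, EGFP-high minus EGFP-negative, of the 10 S100 probe sets that passed the filter, as reported (diamonds), with arrays left out (circles) and with other processing (triangles). S100a4 stays between 4.53 and 5.09 and S100a6 between 1.40 and 1.70, while S100a8 and both S100a10 probe sets lie on both sides of 0.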

How the data were processed

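Keratinocyte RNA of 6 samples was measured on an Affymetrix mouse array of 12488 rows. The authors deposited linear-scale intensities, 1 value a probe set on each array. From the values, each array had been scaled to a mean of 150.1 after trimming at both ends. The sources used here name no software or background method. The largest array median was 1.09 times the smallest, so the deposited scale was kept. No read depth applies, and the number of arrays limits the precision.

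Groups and replicate numbers came from the sample titles. The 66 control rows were left out of tests. Of the others 10833 had 1 gene symbol, 396 several and 1193 none. Symbols were looked up by Entrez identifier in RefSeq (GRCm38.p6), which matched 10817 and changed 0.

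Values were analysed as log2(intensity + 19.3), 19.3 being the 25th percentile of values above 0. Probe sets above the 40th percentile of mean log2 value (an intensity near 44.5) were tested, 7453 in all. EGFP-high minus EGFP-negative was fitted with limma 3.58.1 in R 4.3.3 (lmFit, eBayes with a trend, two-sided, Benjamini-Hochberg, threshold 0.05). In all, 225 were called higher and 162 lower. Figures were drawn with matplotlib 3.10.9. A listed gene was represented by its brightest probe set.

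The S100 genes and all lists were chosen with earlier results of these data known. Genes named were all S100 probe sets, list genes past the threshold (up to 6 a list) with set direct partners, the nearest profiles, and other S100 genes. Ndrg1, Anxa4, Iqgap1, Sprr2b, Rcn2, Itga6, Sfn, Krt1, Krt10, Dsp, Itgb4, Lama3, Cdh3, Cdh1, Col1a2, Col1a1, Csf1r, Laptm5, Cd3d, Cd3e, Coro1a, Thy1, Mitf, Kit, Dct, Tyrp1, Mbp, Pmp22, Lor, Flg and Capn1 were named after their values were seen.

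Deviations from group means correlated at 0.336, 0.368 and 0.305 between arrays of replicate number 1, 2 and 3 in both groups, and at -0.0629 or below between other numbers. All 3 exceeded 0.1, the limit set for pairing. The titles alone give the numbers. All calls and adjusted p values come from the fit without the replicate block unless the block is named, although the limit was exceeded. Values with the replicate block are printed where they change a call.

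Alternatives were the replicate block, pseudocounts 25% and 4 times as large, no filter, quantile normalization, no trend, the mean of a gene's probe sets, each array left out, and both arrays of number 1 left out. The 13 alternatives counted for a single gene leave out the mean of a gene's probe sets.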

Additional observations from a re-analysis of the deposited data

How the results depend on the processing

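Of 130 recomputed differences of the 10 tested S100 probe sets, 121 moved by less than the spread between replicates, and 9 moved by more. The 121 include those with the replicate block, without the filter and without a trend. These settings cannot change a log2 difference in this design. Of the called ones 0 changed sign, and leaving out arrays could not change it, as their populations did not overlap. The 4 S100 probe sets called higher were 4 with the replicate block, with other pseudocounts, with quantile normalization, without a trend and without both arrays of number 1, 5 without the filter, and 3 to 4 without any 1 array. The block changed no call of an S100 probe set. The count of S100 probe sets called lower, 1 as reported, was 0 without the filter on low values and 0 to 1 without any 1 array. Of the 49 partner, receptor and calcium-binding genes, the 5 called higher came to 3 without the filter, 3 without a trend and 2 to 5 without any 1 array. Those called lower, 0 as reported, came to 4 with the replicate block, 1 with the mean of a gene's probe sets, 1 without both arrays of number 1 and 0 to 1 without any 1 array. Genes between S100 genes called lower, 0 as reported, came to 1 with the replicate block. The cause of these shifts was not tested, except that leaving out arrays leaves fewer samples and no filter tests 12422 probe sets. Over all tested probe sets, 382 were called higher and 396 lower with the block, 108 and 83 without EGFP-high replicate 3, and 135 and 91 without EGFP-high replicate 2. Without EGFP-negative replicate 3, 99 were called lower. Signals near the control level limit what can be said of S100a8, S100a9, S100b, S100a5 and most S100a1 probe sets.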
